A study of Mus musculus with 4 samples.

Results

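The 8 genes described here encode proteins of the peripheral myelin sheath or of the Schwann cell that makes it: *Mbp*, *Pmp22*, *Pmp2*, *Mag*, *Prx*, *Ncmap*, *Cldn19* and *Mal*. They were taken by symbol from the gene lists of the matrices, and all 8 were found among the 33456 genes listed. Single cell RNA-seq had been performed on mouse dorsal root ganglia (DRG), the clusters of sensory neurons beside the spinal cord, to ask how satellite glial cells (SGC, the glia wrapped around each neuron body) respond to nerve injury. There were 2 libraries of uninjured ganglia (control) and 2 of ganglia taken 3 days after crush of the sciatic nerve at mid thigh (injury). All came from female C57BL/6 mice aged 8 to 12 weeks, with cells of 5 mice pooled per library, so n is the number of libraries and not of mice. Ganglia were digested with papain and collagenase, live cells were sorted, and droplet libraries of the 3′ ends of transcripts were made. The labels name lumbar ganglion 4, and the study's methods name ganglia 4 and 5. The libraries hold the cells that survived digestion and sorting.

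Myelin of the peripheral nervous system is a spiral of Schwann cell membrane. Its compact layers are held together by adhesion and charge-neutralizing proteins such as MBP, PMP22 and PMP2, while MAG, claudin 19 and NCMAP sit in the uncompacted channels and contact zones, periaxin links the outer membrane to the matrix, and MAL is a raft protein of sorting and transport. The genes are switched on in myelinating Schwann cells under SOX10 and EGR2, and a Schwann cell that loses its axon shuts them down. SGC arise from the same neural crest lineage but make no myelin.

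Of 6975 deposited barcodes, 6095 passed the limits on depth and quality, of which the control libraries held 1301 and 1341 and the injury libraries 2377 and 1076. Median depths in these cells were 2775, 4054, 3110 and 4845 unique molecular identifiers (UMIs, each standing for 1 captured RNA molecule). The 4 libraries held 4293865 to 9139674 UMIs in these cells. 20 barcode sequences were shared between pairs of libraries. Cells were assigned to a type by marker genes that did not include any of the 8 genes, which placed 4966 cells (81.5%). The gates gave 216 Schwann cells (88 and 32 in control, 75 and 21 in injury), 1433 SGC (82, 428, 663 and 260) and 64 cells marked by *Scn7a* with few SGC or Schwann markers (21 and 43, in the replicates numbered 1). They also gave 1036 macrophages, 1206 fibroblasts, 411 endothelial cells, 198 pericytes, 71 T cells and 61 neurons among others. Each name means a cell that passed the gate and is used in that sense. The defining Schwann markers summed to 6926 to 7742 CPM (UMIs of a gene scaled by the total UMIs of the sum) in the Schwann gate, 417 to 589 in SGC, and 6.74, 86.6, 12.6 and 64.6 in macrophages of the 4 libraries in the order control 1, control 2, injury 1, injury 2. All per-library values below follow this order. Not all of these markers were confined to Schwann cells, which held 46.3% of the UMIs of *Fxyd3* and 10.9% of those of *Dhh* in cells that passed the limits.

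The members lie on 6 chromosomes of the mm10 build: *Mal* on chromosome 2 (127633226 to 127656695), *Pmp2* on 3 (10179851 to 10183929), *Cldn19* and *Ncmap* on 4 (119255414 to 119262438 and 135369576 to 135398227), *Prx* and *Mag* on 7 (27499324 to 27520214 and 30899176 to 30914873), *Pmp22* on 11 (63128982 to 63159547) and *Mbp* on 18. *Pmp2* overlaps *Gm37389* on the same strand, and how reads shared by that pair were counted was not examined. From the promoter table of RefSeq (GRCm38.p6), 13 start sites of 6 of the 8 genes were taken. *Mbp* and *Pmp2* were not covered. Since all 8 genes were highest in Schwann cells, the 250 bases before each start were searched on both strands for the letters GTGGGCG (the core bound by EGR factors) and ACAAAG (the core bound by SOX factors). The EGR letters were found before 2 of the 13 starts, both of *Cldn19* and in windows that overlap, and the SOX letters before 2, both of *Mag* and also overlapping. Of 32851 promoter windows of this length, 7.02% held the EGR letters and 16.5% the SOX letters. The windows with a match are given here beside those of *Prx* and *Mal*, which differ in where they were detected. Capitals mark the match, bases inside the annotated gene are left out, and all read 5′ to 3′ on the gene's strand.
Cldn19 (chr4:119255191-119255413, plus strand): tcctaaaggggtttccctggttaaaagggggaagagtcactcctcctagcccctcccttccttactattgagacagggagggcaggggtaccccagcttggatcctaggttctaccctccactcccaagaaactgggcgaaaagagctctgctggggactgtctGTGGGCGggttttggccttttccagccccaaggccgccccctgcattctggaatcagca
Mag (chr7:30914923-30915172, minus strand): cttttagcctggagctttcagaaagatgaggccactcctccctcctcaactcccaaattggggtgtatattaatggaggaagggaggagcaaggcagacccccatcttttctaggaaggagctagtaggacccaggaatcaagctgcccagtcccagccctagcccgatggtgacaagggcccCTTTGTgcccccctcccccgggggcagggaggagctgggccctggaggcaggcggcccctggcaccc
Prx (chr7:27499074-27499323, plus strand): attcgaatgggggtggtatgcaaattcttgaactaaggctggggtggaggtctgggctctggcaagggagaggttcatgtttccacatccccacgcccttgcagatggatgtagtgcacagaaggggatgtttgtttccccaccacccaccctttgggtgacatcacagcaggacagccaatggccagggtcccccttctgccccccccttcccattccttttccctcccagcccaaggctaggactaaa
Mal (chr2:127656696-127656945, minus strand): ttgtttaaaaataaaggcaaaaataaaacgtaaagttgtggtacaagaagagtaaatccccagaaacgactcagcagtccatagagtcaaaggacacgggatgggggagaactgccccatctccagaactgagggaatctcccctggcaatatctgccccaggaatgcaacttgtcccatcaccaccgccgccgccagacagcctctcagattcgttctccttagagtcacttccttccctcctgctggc

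All 8 genes were highest in Schwann cells, and they parted into genes that were also well detected in the other glia (*Mbp*, *Pmp22* and *Mal*) and genes that were at most 22.3 CPM in any SGC library (*Pmp2*, *Mag*, *Prx*, *Ncmap* and *Cldn19*). Of the latter, *Mag* was also found in the *Scn7a* cells and in macrophages. Raw UMIs were summed per library and type where a library had at least 10 cells of the type, and the sums were compared with edgeR's quasi-likelihood test. The call required both a log2 fold of at least 2 in size and an adjusted p (Benjamini-Hochberg) under 0.05. In Schwann cells against the mean of the other types, 8 of 8 members were called higher, beside 12.9% of the 8546 genes tested. The filter on low counts kept a gene that was high in any 1 type. Outside Schwann cells *Pmp2* reached at most 7.19 CPM, *Cldn19* 14.4 and *Prx* 32.0 in a tested sum. These genes thus entered the test through their Schwann level, which made their calls likely in advance. The fitted log2 differences ran from 7.71 ± 0.33 (SE) for *Mal* to 9.95 ± 0.30 for *Ncmap*. By this difference *Ncmap* ranked 1, *Cldn19* 4, *Pmp2* 5, *Prx* 6, *Mbp* 13, *Mag* 20, *Pmp22* 22 and *Mal* 33 of all genes tested. Several of the other types held 0 UMIs of a member, and the fitted size of such a difference depends on the prior count of the fit. Each SE of an edgeR log2 difference was its size divided by the square root of the F statistic, and can be too small there. For *Pmp2* it was 0.40, against 4.82 with DESeq2. The lowest Schwann library was nevertheless above the highest library of any other type for every member, by 2.47-fold for *Mal*, 4.04-fold for *Mag*, 8.54-fold for *Mbp*, 8.89-fold for *Pmp2*, 12.0-fold for *Pmp22*, 19.5-fold for *Prx*, 32.5-fold for *Ncmap* and 51.4-fold for *Cldn19*.

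**Figure D1:**
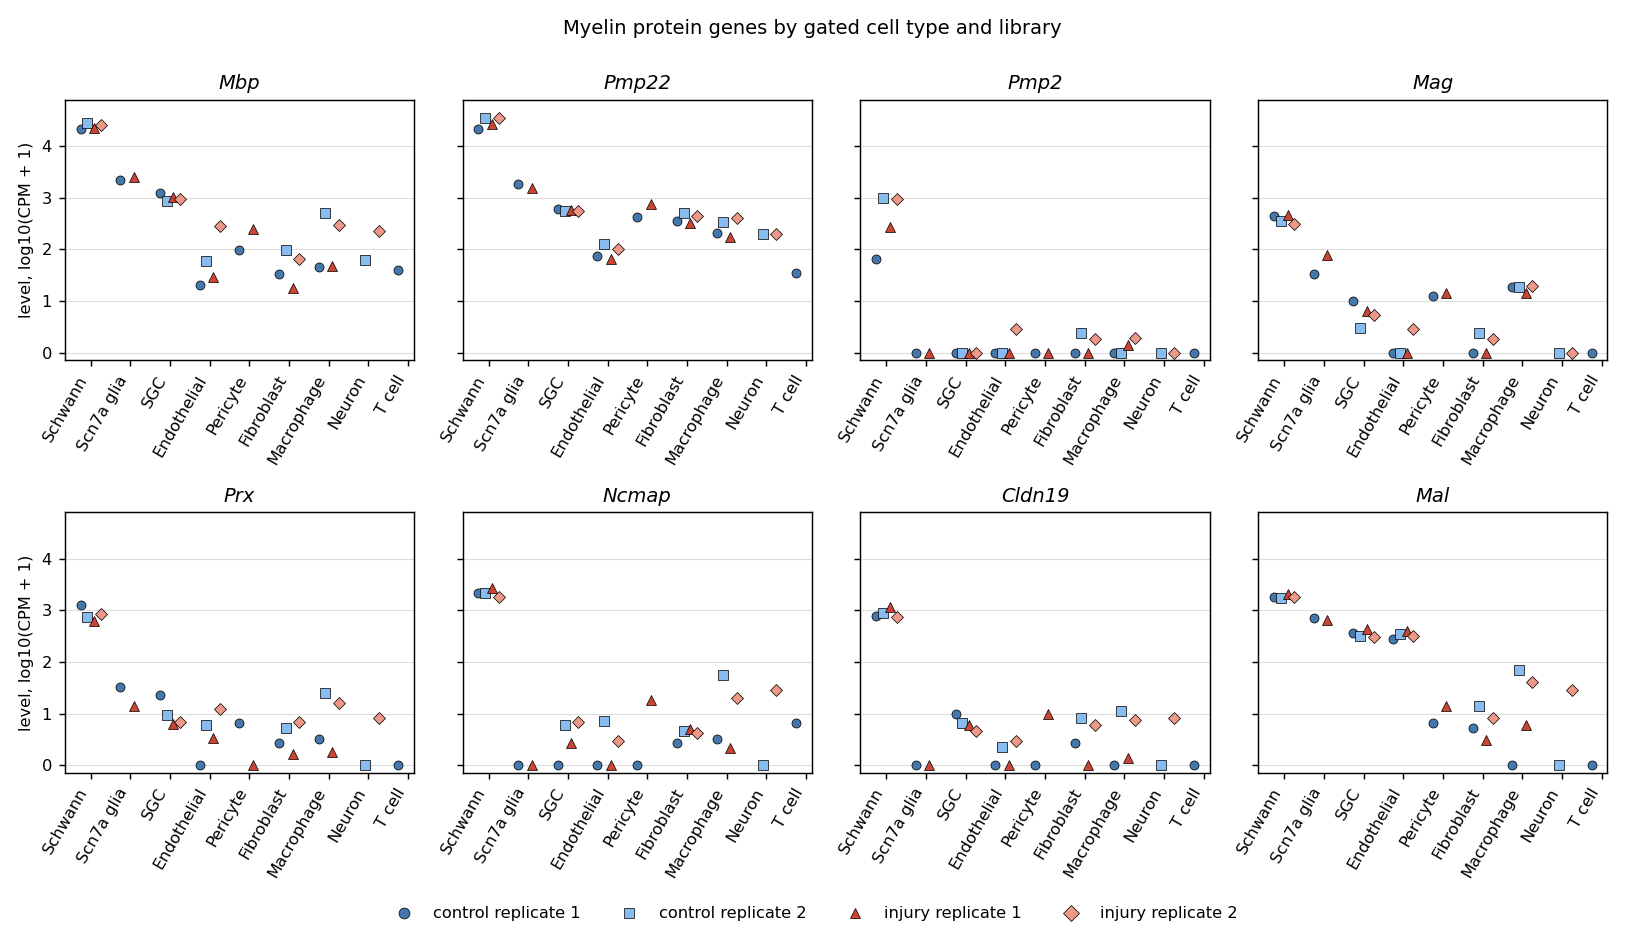
Level of each gene as log10(CPM + 1) in 9 gated cell types, 1 point per library with at least 10 cells of the type, colored by library. Schwann cells were highest for every gene, and *Mbp*, *Pmp22* and *Mal* came next in the *Scn7a* cells. SGC followed, overlapping with endothelial cells for *Mal* and with pericytes for *Pmp22*.

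Among the proteins of compact myelin, *Mbp*, which encodes the basic protein that seals the cytoplasmic faces of the membrane, was at 21444, 28211, 22137 and 25841 CPM in Schwann cells (24408 ± 3187, SD, n = 4 libraries). *Mbp* was at 2206 and 2512 CPM in the *Scn7a* cells and at 1240, 861, 1021 and 947 CPM in SGC. The 3 glial groups did not overlap with one another, and SGC did not overlap with any type outside the glia, of which macrophages were highest (43.8, 496, 46.4 and 299 CPM). Pericytes (97.0 and 253 CPM), neurons (62.3 and 227) and endothelial cells (19.2, 57.4, 27.7 and 283) overlapped with macrophages, so these neighbours in the order did not differ beyond their spread.

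*Pmp22*, which encodes a tetraspan protein of compact myelin whose dosage is altered in hereditary neuropathy, was at 21934, 34583, 26865 and 35296 CPM in Schwann cells (29670 ± 6416, SD, n = 4). The *Scn7a* cells had 1823 and 1562 CPM. SGC were held to a narrow range, 593, 544, 583 and 547 CPM, and pericytes (428 and 767 CPM) spanned it. Fibroblasts followed with 356, 500, 321 and 433 CPM and macrophages with 208, 336, 170 and 407 CPM, again with overlap. Outside Schwann cells *Pmp22* was found in several cell types, with 8.35% ± 1.60 (SD, n = 4) of its UMIs in gated cells coming from fibroblasts.

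*Pmp2*, which encodes a fatty acid binding protein of myelin, had the largest share of its gated UMIs in Schwann cells and varied most between Schwann libraries. Schwann cells had 63.9, 1010, 276 and 964 CPM (12, 145, 50 and 107 UMIs), a 15.8-fold range, while the highest Schwann library was 1.20-fold (*Mal*) to 2.08-fold (*Prx*) above the lowest for the other members. The libraries numbered 2 were high and those numbered 1 low in both conditions, by 15.8-fold in control and 3.50-fold in injury. SGC held 0 UMIs of *Pmp2* in all 1433 cells, which allows a level of up to 3 UMIs per library. Against that floor Schwann cells were at least 4.78-fold, 680-fold, 223-fold and 445-fold higher in the 4 libraries. Schwann cells supplied 98.3% ± 1.49 (SD, n = 4) of the *Pmp2* UMIs of gated cells.

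The libraries numbered 2 also had deeper Schwann cells, with medians of 4326 and 4512 UMIs against 1823 and 2055. *Pmp2* was seen in 8 of 88 and 14 of 75 Schwann cells in the libraries numbered 1, and in 21 of 32 and 9 of 21 in those numbered 2. Schwann cells with and without a *Pmp2* UMI had median depths of 4441 and 1950 UMIs. Within libraries, *Pmp22* of the cells with *Pmp2* was at 36265 and 37305 CPM in the libraries numbered 1, against 19903 and 22524 in those without. In the libraries numbered 2 it was at 33565 and 34354 CPM, against 37067 and 36413. The direction for *Pmp22* thus differed between the libraries numbered 1 and 2. *Mbp* was lower in the cells with *Pmp2* in both control libraries and higher in both injury libraries, *Prx* was lower in control replicate 2 alone, and *Mag* was higher in injury replicate 2 alone. The part of depth and library in the *Pmp2* pattern was not tested.

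**Figure D2:**
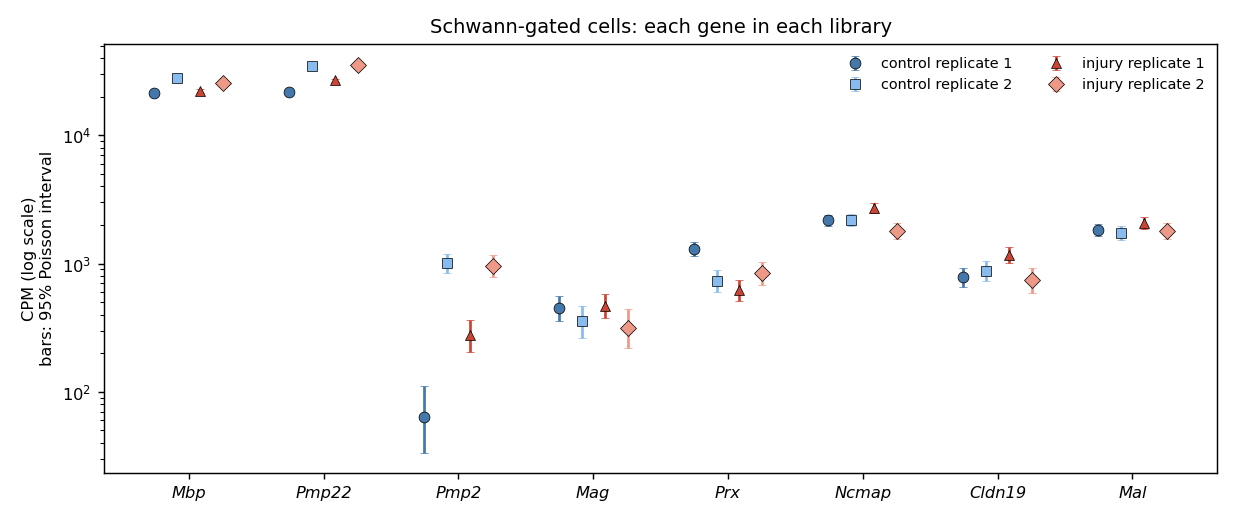
CPM of each gene in the Schwann cells of each library, on a log axis, with 95% Poisson intervals that cover counting error only. *Pmp2* spread from 63.9 to 1010 CPM with the libraries numbered 2 on top, while the other 7 genes stayed within 2.08-fold.

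Among the proteins of uncompacted myelin and the Schwann surface, *Mag*, which encodes a lectin facing the axon, was at 448, 355, 468 and 315 CPM in Schwann cells (397 ± 73.1, SD, n = 4) and at 2 to 9 CPM in SGC (8.92, 1.98, 5.36 and 4.33). *Prx*, which encodes periaxin, was at 1295, 731, 623 and 838 CPM in Schwann cells and 22.3, 8.42, 5.36 and 5.78 CPM in SGC. The first control library was highest for *Prx* in both glial types. *Ncmap*, which encodes a small membrane protein of noncompact myelin, was at 2174, 2194, 2717 and 1803 CPM in Schwann cells and 0, 4.95, 1.65 and 5.78 CPM in SGC. *Cldn19*, which encodes a tight junction protein of the Schwann cell, was at 783, 877, 1168 and 739 CPM against 8.92, 5.45, 4.95 and 3.61 CPM in SGC. For none of these 4 genes did a Schwann library come within 50-fold of the SGC of its own library. The ratio ran from 50.2 to 179 for *Mag*, from 58.0 to 145 for *Prx* and from 87.8 to 236 for *Cldn19*, and for *Ncmap* from 312 to 1646 in 3 libraries and was at least 162 in control replicate 1.

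*Mal*, which encodes a proteolipid of membrane rafts found in myelin and in other polarized cells, had the shallowest slope between types. Schwann cells had 1822, 1734, 2083 and 1794 CPM (1858 ± 154, SD, n = 4), the *Scn7a* cells 703 and 651 CPM, and SGC 366, 319, 443 and 311 CPM. Endothelial cells had 284, 341, 397 and 323 CPM. SGC and endothelial cells overlapped, with ratios of 0.936 to 1.29 within libraries, so their order was not resolved. All other types were at or below 69.3 CPM. In endothelial cells *Mbp* was at 19.2 to 57.4 CPM in 3 libraries and 283 in injury replicate 2, the library in which *Mal* was the smallest share of the UMIs of the 8 genes.

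Against Schwann cells, 8 of 8 members were called lower in SGC, beside 3.66% of all genes tested. *Pmp2*, *Cldn19* and *Prx* entered this test, too, through their Schwann level. The log2 difference of SGC from Schwann cells was -2.33 ± 0.30 (SE) for *Mal*, -4.45 ± 0.46 for *Mbp*, -5.62 ± 0.30 for *Pmp22*, -6.39 ± 0.28 for *Mag*, -6.62 ± 0.30 for *Prx*, -7.43 ± 0.32 for *Cldn19* and -9.20 ± 0.42 for *Ncmap*. The adjusted p of these 7 ran from 1.3e-08 for *Mal* down to 4.8e-23 for *Cldn19* and *Mag*. *Pmp2* was also called, at -11.4 ± 0.39, a size that depends on the prior count of the fit because SGC were at 0. With DESeq2 its call was lost here (adjusted p = 0.256) and in Schwann cells against the other types (adjusted p = 0.219). The ratios of Schwann to SGC CPM within libraries were 4.70 to 5.76 for *Mal*, 17.3 to 32.8 for *Mbp* and 37.0 to 64.6 for *Pmp22*.

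SGC were then compared with the other cells of the ganglion. Against the mean of the types outside the glia, 5 of 8 members were called higher in SGC, beside 19% of all genes tested: *Mal* (log2 difference 6.41 ± 0.45, SE), *Mbp* (5.13 ± 0.41), *Prx* (3.41 ± 1.04), *Pmp22* (3.13 ± 0.27) and *Mag* (2.50 ± 0.91). All 5 differences were taken against an average over types of which several held 0 or few UMIs. *Mal* had 0 UMIs in the tested sums of T cells, B cells, smooth muscle and monocytes or dendritic cells. Endothelial cells, also in that average, overlapped with SGC for *Mal* (SGC to endothelial ratios of 0.936 to 1.29 within libraries). The adjusted p was 0.00657 for *Prx* and 0.0228 for *Mag*. Both calls were lost with DESeq2, where the adjusted p was 0.0558 for *Prx* and 0.299 for *Mag*, and without control replicate 1, where it was 0.0687 and 0.167. *Mag* was also not called without injury replicate 1 (adjusted p = 0.135) or under a stricter gate (0.0566). *Cldn19* was not called (2.23 ± 1.11, adjusted p = 0.107) but was without injury replicate 2 (3.23, adjusted p = 0.0369).

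Macrophages gave a stricter comparison because they were numerous in every library. There 2 of 8 members were called higher in SGC, beside 12.9% of all genes tested, namely *Mal* (3.97 ± 0.38, adjusted p = 9.9e-13) and *Mbp* (2.53 ± 0.45, adjusted p = 3.0e-06). *Pmp22* was 0.77 ± 0.26 higher on the log2 scale (adjusted p = 0.00805), under the fold required for a call. *Prx* (0.02 ± 0.46) and *Cldn19* (0.67 ± 0.63) did not pass. *Mbp* dropped below the required fold without control replicate 1 (1.89) or without injury replicate 1 (1.91). Within libraries the SGC to macrophage ratio of *Mbp* ran from 1.74 in control replicate 2 to 28.3, and that of *Mal* had a median of 7.84 and a highest value of 86.7 in 3 libraries, with a bound of at least 108 in control replicate 1, where macrophages held 0 UMIs.

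*Mag* went the other way, and 1 of 8 members was called lower in SGC than in macrophages, beside 13.4% of all genes tested (log2 difference -2.11 ± 0.36, adjusted p = 1.8e-06). Macrophages had 17.98, 17.3, 13.0 and 18.5 CPM of *Mag*, while their *Prx* was at 2.25, 24.3, 0.787 and 14.8 CPM and their *Ncmap* at 2.25, 55.4, 1.18 and 19.4 CPM. *Mag* UMIs were found in 67 of 1036 macrophages. In the libraries numbered 1, those 46 macrophages held 16 and 33 *Mag* UMIs with 0 and 1 of *Prx* and 0 and 0 of *Ncmap*. The 4 and 17 macrophages with *Mag* in the libraries numbered 2 did hold other members, with 2 and 5 UMIs of *Prx* and 7 and 3 of *Ncmap*. Their *Mbp* was at 4511 and 1100 CPM, against 288 and 220 CPM in the macrophages of those libraries without *Mag*, while in the libraries numbered 1 it was at 62.02 and 65.4 CPM against 42.4 and 44.9. Among barcodes with no UMI of any Schwann marker, macrophages had 14.002 ± 1.87 CPM of *Mag* (SD, n = 4) against 1.75 ± 1.96 of *Prx*, and the log2 difference of SGC was -1.36 (adjusted p = 0.0379), no longer past the fold. In that setting *Prx* was called higher in SGC (2.07, adjusted p = 0.0146). The *Mag* difference also missed the fold without control replicate 2 (-1.82), and *Ncmap*, at -1.79 ± 0.62 (adjusted p = 0.0121), was called lower in SGC without control replicate 1 (-2.05) or injury replicate 1 (-2.30).

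T cells passed the minimum of 10 cells only in control replicate 1, with 59 cells. They held 7 UMIs of *Mbp*, 6 of *Pmp22*, 1 of *Ncmap* and 0 of the other 5 genes. Against them 3 of 8 members were called higher in SGC, beside 13.5% of all genes tested. Those were *Mbp* (4.22 ± 1.04, adjusted p = 0.00128), *Pmp22* (3.87 ± 0.67, adjusted p = 6.9e-06) and *Mal* (adjusted p = 0.000109), the last at least 22.1-fold higher in SGC of the same library by the floor. With 1 T cell library, these values assume that it varies like the other types.

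The *Scn7a* cells lay between SGC and Schwann cells for *Mbp*, *Pmp22* and *Mal*. They were shallower than both, with median depths of 1255 and 1747 UMIs. In the same libraries SGC had 2353.5 and 2999 and Schwann cells 1823 and 2055. The part of depth was not tested. Against the types outside the glia 4 of 8 members were called higher, beside 9.89% of all genes tested: *Mal* (6.98 ± 0.72), *Mbp* (6.37 ± 0.52), *Mag* (5.79 ± 1.11) and *Pmp22* (4.45 ± 0.33). *Mag* rested on 1 and 6 UMIs, and its call was lost without injury replicate 1 (adjusted p = 0.359). *Ncmap*, *Cldn19* and *Pmp2* were at 0 UMIs in all 64 cells. Schwann cells of injury replicate 1 were therefore at least 69.6-fold higher in *Ncmap* and at least 29.9-fold higher in *Cldn19*. For *Pmp2* the bound was 7.06-fold in injury replicate 1. It was 0.666-fold in control replicate 1, where a difference was thus not resolved. Within libraries *Mbp* was 1.78 and 2.46 times and *Pmp22* 3.07 and 2.68 times the SGC level.

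Cells of the 4 libraries pooled, and not only sums, separated the same way. The macrophages among them numbered 259, 80, 495 and 202. Their *Mbp* sums were higher in the libraries numbered 2 (496 and 299 CPM against 43.8 and 46.4). To set depths equal, each cell was thinned to 1000 UMIs, which left out 1 Schwann cell, 1 macrophage and 1 *Scn7a* cell as too shallow. *Mbp* was then found in 99.8% of Schwann cells, 59.2% of SGC, 6.24% of macrophages and 6.68% of T cells. *Pmp22* was found in 99.1%, 41.7%, 17.3% and 4.13%, and *Mal* in 83.3%, 31.8%, 1.34% and 0%. The unthinned shares of SGC were 93.1% for *Mbp* (95% interval 91.7 to 94.3, exact binomial), 83.2% for *Pmp22* and 71.9% for *Mal*, at a median depth of 3865 UMIs. Macrophages had 19.2%, 44.2% and 3.47% at a median of 4067 UMIs.

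The remaining 5 genes were found in fewer than 1% of thinned SGC. With the libraries pooled, *Mag*, *Ncmap* and *Pmp2* were below the macrophage share and *Prx* and *Cldn19* above it. *Mag* was in 0.534% of thinned SGC against 1.56% of macrophages, *Ncmap* in 0.279% against 0.823%, *Prx* in 0.778% against 0.498%, *Cldn19* in 0.634% against 0.230%, and *Pmp2* in 0% against 0.0412%. For *Prx* and *Cldn19* the order by CPM changed between libraries. The SGC to macrophage ratio of *Prx* was 9.92, 0.347, 6.82 and 0.391. That of *Cldn19* was 0.524 in control replicate 2, 12.6 in injury replicate 1 and 0.559 in injury replicate 2. In Schwann cells the thinned shares were 35.9% for *Mag*, 80.1% for *Ncmap*, 55.3% for *Prx*, 57.6% for *Cldn19* and 14.1% for *Pmp2*. Unthinned, *Pmp2* was in 0 of 1433 SGC, and the exact 95% interval reached 0.257%. These intervals and floors cover counting error only.

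**Figure D3:**
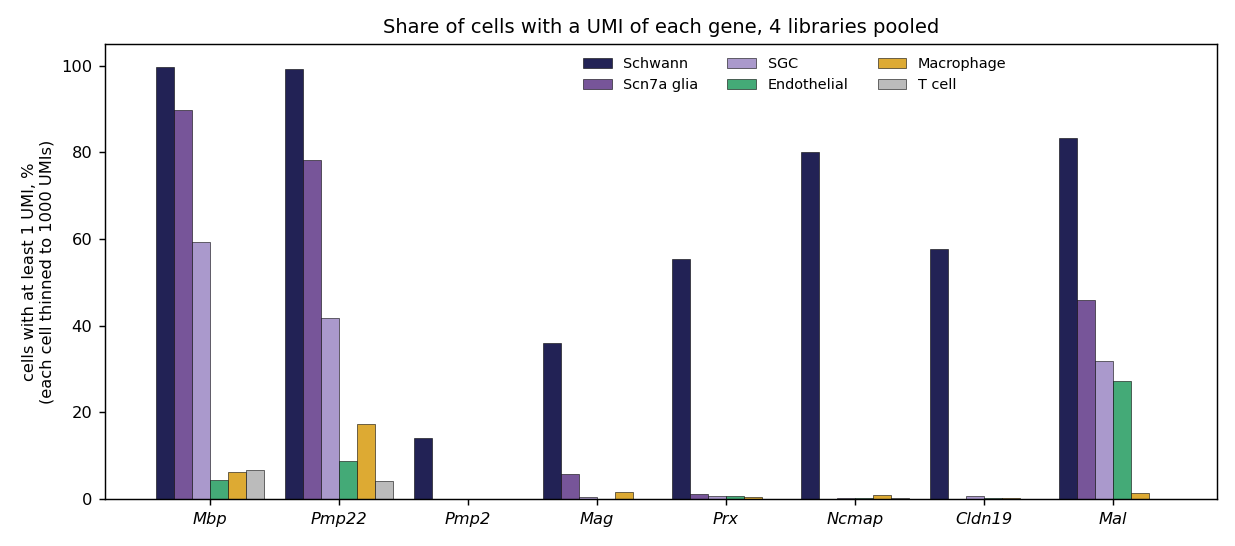
Percent of cells with at least 1 UMI of each gene after thinning to 1000 UMIs, for 6 cell types with the 4 libraries pooled. Bars for *Mbp*, *Pmp22* and *Mal* stood well above the macrophage and T cell bars in SGC (59.2%, 41.7% and 31.8%), and those of the other 5 genes did so only in Schwann cells, apart from 5.70% of *Scn7a* cells for *Mag*.

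The number of the 8 genes found per cell also differed between types. Whether genes were found together more often than their separate shares give was not tested. A Schwann cell had UMIs of a median of 6 of the 8 genes, 207 of 216 (95.8%) had 5 or more, and 32 had all 8. An SGC had a median of 3, and 11 of 1433 (0.768%) had 5 or more. Macrophages had a median of 1, and 12 of 1036 (1.16%) had 5 or more, all 12 in the libraries numbered 2.

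The make-up of the UMIs of the 8 genes differed between types. *Mal* was 3.12% of these UMIs in Schwann cells, 14.1% in the *Scn7a* cells, 18.3% in SGC and 66.1% in endothelial cells (means over libraries), where injury replicate 2 was lowest at 44.5%. *Ncmap* was 3.75% in Schwann cells, 0.1701% in SGC and 0.357% in endothelial cells. *Pmp22* was 48.4% in Schwann cells and 86.4% in fibroblasts. *Mag* was 0.676% in Schwann cells and 4.01% in macrophages. When only SGC with no UMI of any Schwann marker were kept, an alternative added after seeing the data, they had 1104 ± 208 CPM of *Mbp*, 516 ± 81.5 of *Pmp22* and 383 ± 82.3 of *Mal* (SD, n = 4), against 1017 ± 162, 567 ± 25.2 and 360 ± 60.6 in all SGC. That setting also removed SGC with a UMI of *Dhh*, a marker with 10.9% of its UMIs in Schwann cells.

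In macrophages the make-up moved with the library. *Mbp* and *Ncmap* were high in the libraries numbered 2, where the summed Schwann markers (86.6 and 64.6 CPM against 6.74 and 12.6) and SGC markers (198 and 179 CPM against 43.8 and 93.2) were also high, and without barcodes that held a Schwann marker *Mbp* of macrophages went from 221 ± 219 to 84.7 ± 60.6 CPM. The part of these markers in the remaining signal was not tested.

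**Figure D4:**
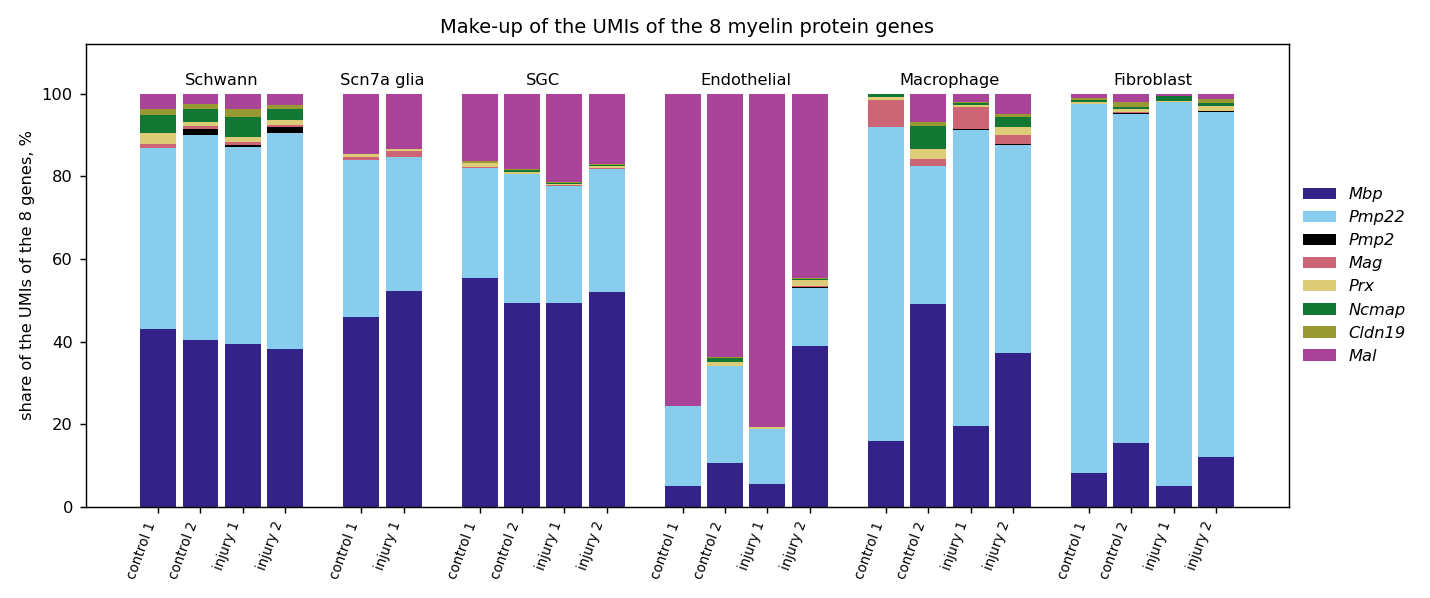
Share of each gene among the UMIs of the 8 genes, in percent, 1 bar per library and cell type. SGC had a larger *Mal* share (18.3% against 3.12%), *Mal* was 63.6% to 80.8% of the endothelial bars in 3 libraries and 44.5% in injury replicate 2 (where *Mbp* was 39.0%), *Pmp22* was 79.7% to 93.0% of the fibroblast bars, and macrophages differed between the libraries numbered 1 and 2.

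Few as they were, the Schwann cells supplied most of the RNA of 7 of the 8 genes. They made up 8.68%, 2.82%, 3.92% and 2.32% of gated cells and gave 98.3% of *Pmp2*, 91.7% of *Ncmap*, 88.1% of *Cldn19*, 82.0% of *Prx*, 71.2% of *Pmp22*, 69.3% of *Mag* and 68.2% of *Mbp* UMIs in gated cells (means of 4 libraries). For *Mal* they gave 66.8%, 20.6%, 22.3% and 22.98% in the 4 libraries, and SGC gave 16.02%, 53.3%, 63.4% and 49.8%. SGC were thus the larger source in 3 libraries and Schwann cells in control replicate 1, which held the most Schwann cells and 82 SGC. Endothelial cells gave 15.97% ± 6.08 (SD) of *Mal*. Macrophages gave 19.6% ± 10.3 of *Mag*. Cells that no gate took, 1129 in all, held 1026 ± 313 CPM of *Mbp*, 845 ± 66.4 of *Pmp22* and 169 ± 46.5 of *Mal*.

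No member was called between injury and control in any of the comparisons with all 4 libraries. In Schwann cells 0 of 8 members were called between injury and control, beside 0% of the 2504 genes tested by edgeR (49 at an unadjusted p under 0.05, and 1 gene called by DESeq2). The log2 differences were -0.08 ± 0.35 (SE) for *Mbp*, 0.11 ± 0.40 for *Pmp22*, 0.16 ± 1.02 for *Pmp2*, -0.05 ± 0.32 for *Mag*, -0.49 ± 0.34 for *Prx*, 0.02 ± 0.29 for *Ncmap*, 0.18 ± 0.31 for *Cldn19* and 0.10 ± 0.26 for *Mal*, all at an adjusted p of 0.999. Control and injury overlapped for each of the 8. The Schwann gate required at least 3 markers, and the myelin genes *Drp2*, *Gjb1*, *Gldn* and *Ugt8a* were among those counted. A Schwann cell with its myelin genes shut down could thus fall outside the gate, and such a loss might not be seen here. *Pmp2* was called higher in injury when control replicate 2 was left out (log2 difference 3.28, adjusted p = 9.3e-06), which leaves 1 control library, the one with 12 UMIs, assumed to vary like the others.

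In SGC only 4 members passed the filter on low counts, and 0 of those 4 were called, beside 0% of 8980 genes tested by edgeR (92 at an unadjusted p under 0.05, 1 called by DESeq2). *Mbp* differed by 0.01 ± 0.25 (SE), *Pmp22* by 0.07 ± 0.23, *Mal* by 0.23 ± 0.26 and *Prx* by -0.96 ± 0.58 on the log2 scale. The difference between the injury effects of Schwann cells and SGC was called for 0 of 8 members, beside 0% of 3738 genes (62 at an unadjusted p under 0.05, 1 by DESeq2), with values from -0.78 ± 0.67 for *Mag* to 0.63 ± 0.55 for *Cldn19*, *Pmp2* having no UMI in SGC.

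In macrophages 6 members passed the filter and 0 were called, beside 0% of 7141 genes tested by edgeR (623 at an unadjusted p under 0.05, 16 by DESeq2). Their differences ran from -1.45 ± 1.45 for *Ncmap* to -0.06 ± 0.40 for *Pmp22*. Over all cells of a library 0 of 8 members were called, beside 0% of 13165 genes (181 at an unadjusted p under 0.05, 5 by DESeq2). *Prx* was at -1.05 ± 0.53, *Ncmap* at -0.58 ± 0.37 and *Cldn19* at -0.40 ± 0.43, the others between -0.34 and 0.19. In these whole-library sums fewer Schwann cells and less RNA per cell cannot be told apart, and control replicate 1 held the largest Schwann share (8.68% of gated cells).

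**Figure D5:**
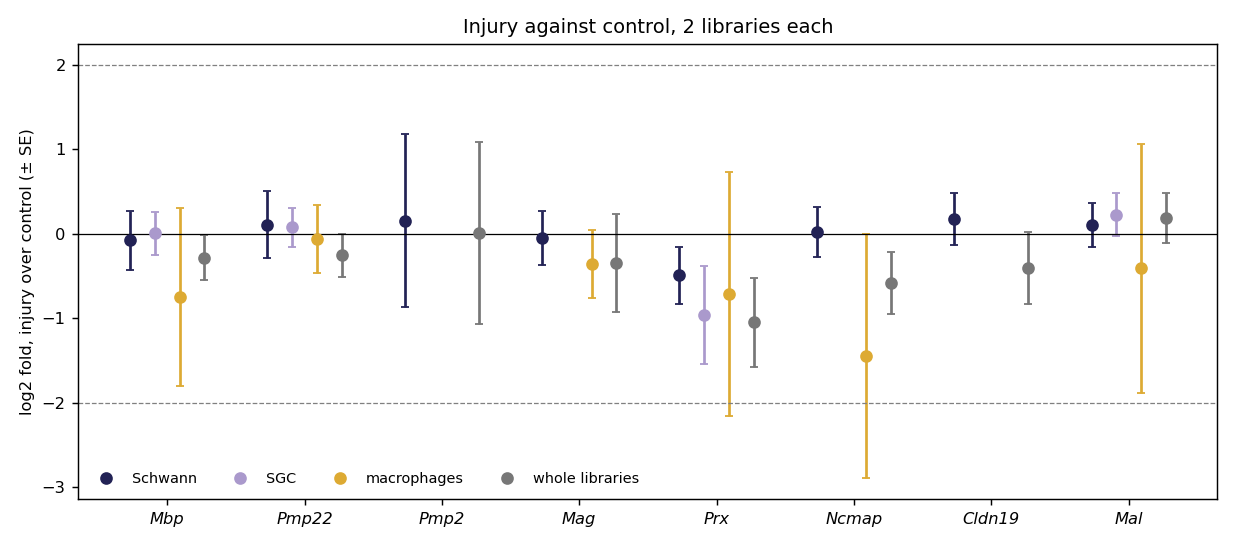
Log2 difference of injury from control for each gene in Schwann cells, SGC, macrophages and whole libraries, with 2 libraries per condition. Bars are the SE derived from the F statistic. A missing point did not pass the filter on low counts. Every point lay inside the dashed lines at the fold required for a call, and in Schwann cells all lay between -0.49 and 0.18.

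Other genes of myelin and of its control were taken from 3 lists. Of 20 other myelin and paranode genes, 20 were called higher in Schwann cells than in the mean of the other types. This stood beside 12.9% of all genes tested. The median log2 difference of the 20 was 6.15, against 0.25 over all genes tested. 4 of them, *Drp2*, *Gjb1*, *Gldn* and *Ugt8a*, had also served as Schwann markers in the gate. The 4 with the largest difference were *Gjb1*, a gap junction protein of noncompact myelin (9.87 ± 0.37, SE), *Ugt8a*, which makes galactosylceramide (9.07 ± 0.32), *Fa2h*, which hydroxylates the fatty acids of myelin lipids (8.94 ± 0.45), and *Pllp*, a proteolipid of membrane rafts (8.57 ± 0.29). In SGC against the types outside the glia, 16 of the 20 were called higher, beside 19% of all genes tested (median 3.61 against 0.48). Against Schwann cells 9 were called lower in SGC, beside 3.66% of all genes, and 0 higher, beside 474 of 8546 (median -1.79 against 0.23).

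Of 16 regulators that switch myelin genes on, 14 were tested. In Schwann cells against the mean of the other types 8 were called higher, beside 12.9% of all genes tested (median 3.35). They were led by *Pou3f1* (6.71 ± 0.63), *Sox10* (5.79 ± 0.41) and *Pou3f2* (5.57 ± 0.69), transcription factors of the Schwann lineage, and *Egr2*, the factor that drives the myelin program (4.75 ± 0.33). In SGC against the types outside the glia 12 of the 14 were called higher, beside 19% of all genes tested (median 3.39). Against Schwann cells 2 were called lower in SGC, beside 3.66% of all genes, and 1 higher, beside 474 of 8546 (median 0.46). All 8 members were called lower in that comparison.

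Of 16 genes of dedifferentiated or repair Schwann cells, 10 were tested. In Schwann cells 2 were called higher, beside 12.9% of all genes tested, led by *Sox2*, a factor that opposes myelination (5.77 ± 0.62). *Bdnf* and *Gfap* (2.16 ± 1.39) did not pass, with no usable error for *Bdnf*. Between injury and control in Schwann cells, 0 of the 20, 0 of 7 tested regulators and 0 of 2 tested repair genes were called. This stood beside 0% of all genes tested. The medians of the lists were -0.04, -0.29 and -0.28, against -0.01 over all genes. Since *Jun*, at -0.66 ± 0.49, and *Sox2*, at 0.09 ± 0.41, were the only repair genes that passed the filter, most of that list could not be read in these Schwann cells.

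Over the 38 sums of a type in a library, each member's log2(CPM + 1) was correlated with the mean of the other 7, from a Pearson r of 0.723 for *Mal* to 0.943 for *Prx*. The points share libraries and depths, so r is given as a description. The genes outside the list that followed its mean most closely were *Mlip* (r = 0.945), *Ugt8a* (0.911), *Fa2h* (0.905), *Gjb1* (0.885), *2610034M16Rik* (0.881), *Shc4* (0.872), *Fam178b* (0.871), *Slc36a2* (0.869) and *Gldn* (0.862), out of 11278 genes with at least 100 UMIs. Of these *Mlip*, *Ugt8a*, *Gjb1*, *Fam178b*, *Slc36a2* and *Gldn* had been used as Schwann markers in the gate.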

How the data were processed

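The authors aligned reads to mm10 and counted UMIs with Cell Ranger (2.1.0 in the study's methods), and deposited 1 matrix of raw counts per gene and barcode for each of the 4 libraries. The limits on barcodes were those of the study, 500 to 4000 genes, 600 to 15000 UMIs and less than 10% of UMIs from mitochondrial genes. A type was assigned where a barcode had at least 3 distinct markers of it and at least 2 times as many as of any other type. The *Scn7a* gate required *Scn7a* itself and fewer than 3 SGC and fewer than 3 Schwann markers. Doublets were not called. A doublet of balanced marker numbers stays ungated, and others may remain. Sums of at least 10 cells were tested with edgeR 4.0.16 (R 4.3.3, TMM scaling, filterByExpr, quasi-likelihood test), with all types and a library term in 1 fit for types and separate fits for injury. DESeq2 1.42.0, no filter, each library left out, all barcodes, a stricter gate and a replicate block were alternatives. Scripts were tested on simulated data. CPM is a sum's UMIs over its total UMIs. Intervals are exact (95%, scipy 1.17.1), and the floor is 3 UMIs per library.

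The labels number only the second library of each condition, and the other is called replicate 1. The members and gene lists were chosen with earlier results of these data known. Genes named in a list are the 4 with the largest log2 difference in Schwann cells and any called in an injury comparison. The most alike genes are the 10 with the highest r, and 1 of these and 1 of the repair genes are not reported here. With mice pooled, p-values of the injury fits measure the spread between 2 libraries per condition. Those of the type comparisons measure the scatter of all type sums around 1 fit with type and library terms.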

Additional observations from a re-analysis of the deposited data

How the results depend on the processing

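The injury comparisons rest on 2 libraries per condition and 216 Schwann cells, and *Pmp2* on 12 UMIs in 1 of them. All 264 refits of called member differences kept their sign, and 13 were no longer called. Of 433 refits uncalled in both, 61 changed sign. The injury difference of *Mal* in macrophages ran from -2.30 to 7.82 without 1 library, and was called at 7.82 without control replicate 2, where the remaining control library held 0 UMIs. *Ncmap* (-2.82, without control replicate 1) and *Mbp* (-2.45, without injury replicate 2) were also called there.

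The number of members called in SGC against types outside the glia was 5, 3 with DESeq2 and 3 to 6 without 1 library. For injury it was 0 to 1 in Schwann cells and 0 to 1 in macrophages without 1 library. Over all genes, no filter on low counts gave 2655 calls in SGC against types outside the glia (1661 with it) and 3580 against macrophages (2244 with it). *Scn7a* cells had 887 calls, 543 under the stricter gate and 372 to 877 without 1 library. Injury calls, 0 in each comparison, were 1 in Schwann cells, 1 in SGC, 16 in macrophages, 5 in whole libraries and 1 in the difference of effects with DESeq2. Without a filter they were 7, 10, 114, 0 and 5. Without 1 library they ran from 0 to 16, 0 to 1, 54 to 161, 0 to 25 and 0 to 0. With the replicate block they were 5, 12, 76, 0 and 1, none of them a member. Same-numbered libraries deviated together (r = 0.573 in Schwann cells, 0.425 in SGC). The labels do not say that a number marks a shared batch, and the cause was not tested. Leaving out control replicate 1 gave no value against T cells, since no other library held 10 of them.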
